A study of Mus musculus with 16 samples.

Results

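The genes described here are 35 genes of glycolysis and of the transcriptional response to low oxygen, measured in primary mouse tracheal epithelial cell cultures (MTECs). They were listed by symbol from their known roles, by a rule that used no expression value but with earlier results of these data known, and found among the 49315 gene identifiers of the count table. All 35 passed the filter on low counts, as did 15993 genes in all.

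MTECs are epithelial cells grown on permeable inserts with air above and medium below, where they form basal, secretory and ciliated cells. Cultures came from female (F) and male (M) LMAN1 knockout (KO) mice on the C57BL/6J background and from their wild-type (WT) littermates, and were left untreated (naive) or given house dust mite extract (HDM) at 20 µg/ml overnight. LMAN1 is a cargo receptor that carries glycoproteins out of the endoplasmic reticulum. Each of the 8 groups, F WT naive, F WT HDM, F KO naive, F KO HDM, M WT naive, M WT HDM, M KO naive and M KO HDM, held 2 libraries labelled as biological replicates. All cultures shared a basement membrane made by a fibroblast line. Cells from several tracheas were pooled, so a library does not stand for a single mouse. Mouse ages are not given in the sources used here.

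Glycolysis splits glucose into pyruvate through a chain of cytosolic enzymes, beginning with phosphorylation by hexokinase and passing a controlled step at phosphofructokinase. Several of its genes are classical targets of the hypoxia-inducible factors (HIFs), which pair an oxygen-sensitive alpha subunit with a stable partner. In well-oxygenated cells prolyl hydroxylases mark the alpha subunit for destruction, and in low oxygen it persists and binds short DNA elements beside genes for glucose use, acid handling, blood vessel growth and mitochondrial removal. Airway epithelium uses the HIF-1 and HIF-2 proteins, and transcript levels alone do not report how much of either protein is present.

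Library totals ranged from 21860698 to 43442188 counts. Levels are given as CPM, the usual scaling of a gene's counts to the size of its library, with library sizes corrected for RNA composition by edgeR's TMM method. Lman1 lay between 101 and 144 CPM in the 8 WT libraries but was still counted in every library labelled KO, at 12.8 and 12.8 CPM in F KO naive, 14.2 and 63.4 in M KO naive, 66.6 and 78.1 in F KO HDM and 65.0 and 66.0 in M KO HDM. The deleted part of the gene is not given, so KO below means the library labelled KO. Xist and Ddx3y matched the sex label in all 16 libraries. The basal keratin gene Krt5 (628.5 to 5868 CPM) and the secretory cell gene Cyp2f2 (3754 to 18920 CPM) were high in all libraries. The defining club cell gene Scgb1a1 never exceeded 3.75 CPM and the axonemal gene Dnah5 never exceeded 11.4 CPM. Some other markers of these cell types reached higher levels. The multiciliated regulator Foxj1 had 44.8 to 97.5 CPM, and the secretory genes Scgb3a1 and Scgb3a2 had 4.54 to 693 CPM and 3.25 to 357 CPM.

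The F WT HDM libraries stood apart in cell type markers. The summed club and secretory markers were 4656 and 3766 CPM there, against 17440 and 13190 in F WT naive, and all 7 markers were called lower with HDM. All 5 goblet markers, 5 of 6 basal markers and 4 of 8 multiciliated markers were also called lower, against 22.4% of all genes. Of 6 squamous markers, 2 were called lower and 1 higher. In F KO HDM the club and secretory sum was 7880 and 7232 CPM, against 15970 and 13200 in F KO naive. Called lower there were 4 of 7 club and secretory, 3 of 5 goblet, 1 of 6 basal and 1 of 8 multiciliated markers, against 5.77% of all genes. The basal sum was 12760 and 10150 CPM in F KO HDM against 9700 and 10950 CPM in F KO naive. Mitochondrial genes took 2.04% and 2.5% of counts in F WT HDM, 1.39% and 1.36% in F KO HDM and 0.517% to 0.675% in the 4 naive female libraries. In males the share was 1.03% to 1.52% in naive and 0.668% to 1.38% in HDM libraries, so the F KO HDM share lay within the naive male range. Summed fibroblast markers reached 538 CPM in F WT naive replicate 2 and 595 CPM in F WT HDM replicate 2, against 26.7 and 48.9 CPM in the respective replicate 1. Among the leukocyte markers, the T cell gene Cd3e was at or near 0 throughout. The macrophage genes Cd68 (8.43 to 31.0 CPM) and Adgre1 (10.3 to 33.3 CPM) and the general leukocyte gene Ptprc (2.29 to 6.41 CPM) were counted in every library. In whole cultures, fewer cells of a type and less RNA per cell cannot be told apart, and the part these shifts play in the results below was not tested.

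HIF proteins recognise a core of 5 bases written ACGTG or GCGTG. The stretch of 250 bases before each annotated start was taken from RefSeq on build GRCm38.p6 and searched for both cores on both strands. Sequences were found for 34 of the 35 genes, and Ndrg1 had no entry. The windows of 3 members with large falls in both female HDM groups (Adm, Egln3, Ankrd37) and of the 2 members with the largest rise in F WT (P4ha2, Hk2) are shown, read along the gene's own strand, with each core or its reverse complement in capitals. The windows lie outside GENCODE exons, apart from 17 bases of the Ankrd37 window. Those of Ankrd37 and P4ha2 precede a RefSeq start but lie within the GENCODE span of the gene, downstream of where that span begins.
Adm, chr7:110627407-110627656, + strand: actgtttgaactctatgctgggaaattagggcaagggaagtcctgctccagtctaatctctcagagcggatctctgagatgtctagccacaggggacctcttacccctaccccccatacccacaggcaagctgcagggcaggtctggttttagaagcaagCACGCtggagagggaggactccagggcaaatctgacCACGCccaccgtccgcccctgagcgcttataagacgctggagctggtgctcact
Egln3, chr12:54203875-54204124, - strand: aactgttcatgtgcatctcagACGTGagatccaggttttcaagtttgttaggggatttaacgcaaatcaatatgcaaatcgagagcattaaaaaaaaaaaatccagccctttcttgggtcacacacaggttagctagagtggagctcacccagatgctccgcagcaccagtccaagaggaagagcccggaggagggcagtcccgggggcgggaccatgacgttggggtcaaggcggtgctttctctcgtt
Ankrd37, chr8:45999851-46000100, - strand: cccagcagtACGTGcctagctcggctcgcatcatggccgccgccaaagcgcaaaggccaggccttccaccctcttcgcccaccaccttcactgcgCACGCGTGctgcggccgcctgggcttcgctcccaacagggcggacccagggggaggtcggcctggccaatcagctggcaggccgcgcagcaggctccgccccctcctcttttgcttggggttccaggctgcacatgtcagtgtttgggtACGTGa
P4ha2, chr11:54100674-54100923, + strand: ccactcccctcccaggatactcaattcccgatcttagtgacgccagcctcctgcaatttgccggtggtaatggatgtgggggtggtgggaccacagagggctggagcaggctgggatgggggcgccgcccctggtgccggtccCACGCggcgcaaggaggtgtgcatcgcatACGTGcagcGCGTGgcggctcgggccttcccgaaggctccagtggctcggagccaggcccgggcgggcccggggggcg
Hk2, chr6:82774455-82774704, - strand: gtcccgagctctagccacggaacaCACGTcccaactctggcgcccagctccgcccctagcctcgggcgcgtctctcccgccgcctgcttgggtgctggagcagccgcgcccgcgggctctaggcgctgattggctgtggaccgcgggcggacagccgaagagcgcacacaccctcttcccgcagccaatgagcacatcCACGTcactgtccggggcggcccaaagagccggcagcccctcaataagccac

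The Ankrd37 window held 4 cores, 2 of which overlap, the P4ha2 window held 3, the Adm and Hk2 windows 2 each, and the Egln3 window 1. Thus members that fell and members that rose both carried the letters. At least 1 core was present for 30 of 34 members (88.2%), compared with 41.5% of the 27025 genes with an entry, and in 38 of 48 member windows (79.2%) compared with 38.6% of all 32851 windows. By direction in the F WT HDM response, a core was present for 13 of 15 members that fell, 3 of 3 that rose and 14 of 16 that were not called. Both cores contain the bases CG, and the windows of members and of all genes were not matched for base composition. These counts are of letters in a window and do not show binding.

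The 35 members spanned a wide range of levels. Per kilobase of exon the highest medians over the 16 libraries were those of Pkm (479 CPM per kb), Aldoa (390), Ldha (371) and Gapdh (283), and the lowest were Slc16a3 (0.838), Car9 (0.555) and Eno2 (0.157). Pkm makes pyruvate kinase, aldolase A cleaves fructose bisphosphate, Ldha makes the lactate dehydrogenase subunit favoured for lactate production and Gapdh oxidises triose phosphate. These exon lengths join all annotated transcripts, so they set an order and not a molar ratio. The ratio of the highest to the lowest library was 1.19 for Pfkm, 1.33 for Gpi1 and for Egln1, and 1.77 for Pkm, while Car12 spanned 23.3 times, Aldoc 16.8 times, Adm 15.0 times and Egln3 14.0 times.

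**Figure D1:**
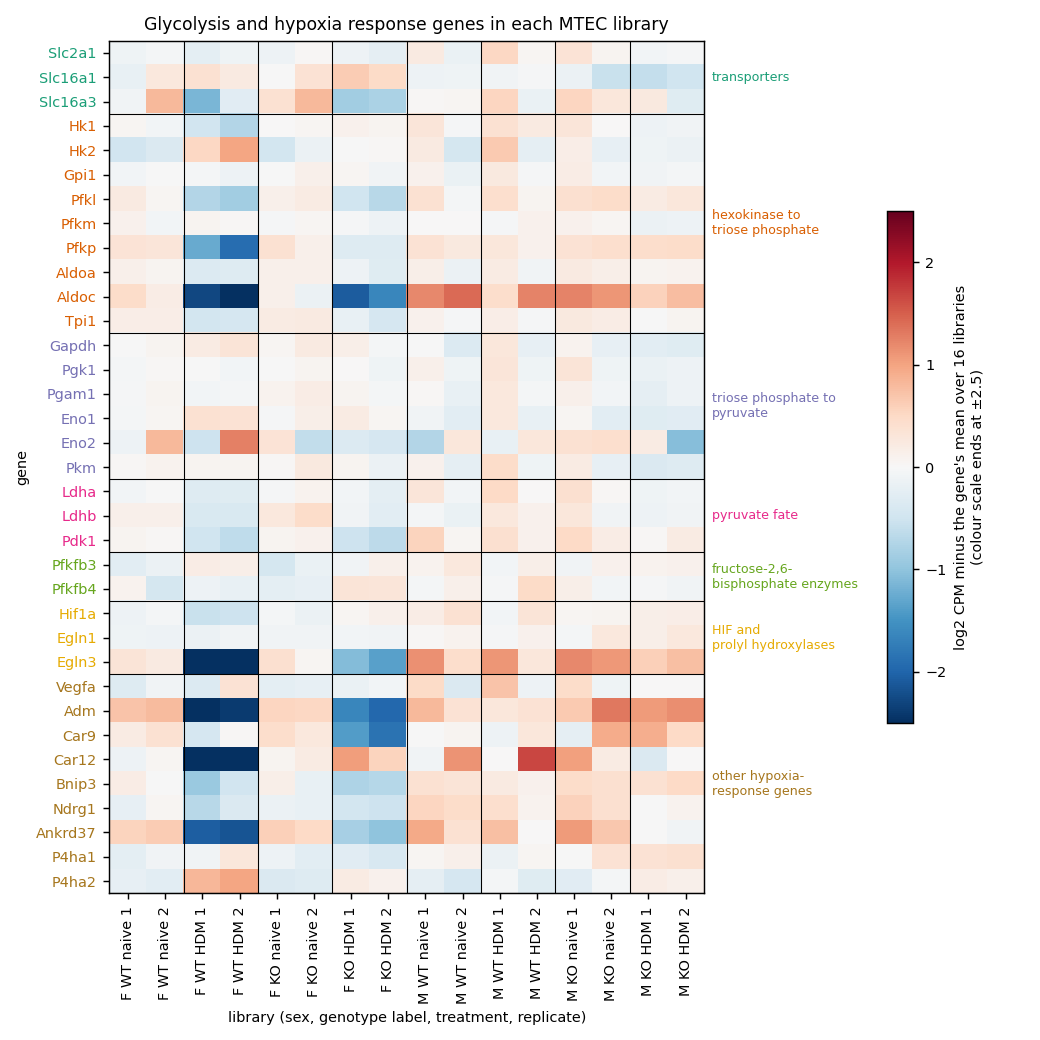
Level of each of the 35 genes (rows, coloured by role) in each of the 16 libraries (columns), as log2 CPM minus the gene's mean over the libraries, with colours ending at 2.5 above or below. The deepest blue lies in the F WT HDM columns, at Adm, Egln3, Aldoc, Car12 and Ankrd37, where 13 members had their 2 lowest libraries. How many of all genes had this pattern was not counted.

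Which members changed with HDM was first tested in F WT MTECs. Here 19 of 35 members (54.3%) were called at an adjusted p under 0.05, 16 lower and 3 higher, with edgeR's quasi-likelihood test adjusted over all 15993 genes, of which 43.1% were called. In the lower direction the count was 16 of 35 against 22.4% of all genes, and in the higher direction 3 of 35 against 20.6%. The median log2 fold change of the members was -0.27, against -0.02 for all genes tested. In 13 members both F WT HDM libraries lay below all other 14 libraries, and in Eno1 and P4ha2 both lay above them. How many of all genes did so was not counted, so these numbers do not set the members apart from other genes. The falls were largest in the hypoxia genes Adm, Egln3, Ankrd37 and Car12 and the upper glycolytic gene Aldoc, followed by Pfkp, whereas the 6 genes from triose phosphate to pyruvate were not called.

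Among the transporters, Slc16a3 (the lactate exporter MCT4) had 4.07 and 7.62 CPM in F WT naive and 1.96 and 3.55 CPM in F WT HDM. It fell by 1.10 ± 0.36 on the log2 scale (SE; edgeR adjusted p = 0.0291), and the replicates within each group also differed. Slc2a1, the basal glucose transporter GLUT1, had 109 and 113 CPM in naive and 98.9 and 109 CPM in HDM libraries, a log2 difference of -0.10 ± 0.16 that was not called. Slc16a1, the monocarboxylate transporter MCT1, differed by 0.24 ± 0.18 and was not called.

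From hexokinase to triose phosphate, 6 of 9 genes fell and 1 rose. Pfkp (ENSMUSG00000021196), the platelet-type phosphofructokinase, had 56.1 and 53.9 CPM in F WT naive and 18.4 and 11.7 CPM in F WT HDM, and the groups did not overlap. It fell by 1.87 ± 0.16 on the log2 scale (edgeR adjusted p = 6.06e-06). Exons of Pfkp overlap those of Pitrm1, which differed by 0.04 ± 0.09 in the same fit.

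Aldoc (ENSMUSG00000017390; gene on build GRCm38 at chr11:78322968-78327781, + strand), the brain-type aldolase, had 67.0 and 55.8 CPM in F WT naive and 10.1 and 7.86 CPM in F WT HDM. It was left at 0.147 of the naive level (log2 -2.77 ± 0.26, edgeR adjusted p = 1.1e-05). Pfkl, the liver-type phosphofructokinase, had 271 and 241 CPM in naive and 139.9 and 126 CPM in HDM libraries and was left at 0.520 of the naive level (adjusted p = 0.000358, edgeR). Tpi1, which interconverts the triose phosphates, had 541 and 539.5 CPM in naive and 351 and 357 CPM in HDM libraries and fell by 0.61 ± 0.09 on the log2 scale (adjusted p = 0.000363, edgeR). In each of these genes the HDM libraries lay close together and below both naive libraries.

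The hexokinase genes moved in opposite directions. Hk1, the housekeeping hexokinase, had 370.3 and 344.5 CPM in F WT naive and 259.5 and 218 CPM in F WT HDM, and fell by 0.58 ± 0.13 on the log2 scale (edgeR adjusted p = 0.0033). Hk2, the inducible hexokinase, had 80.2 and 87.1 CPM in F WT naive and 161 and 224 CPM in F WT HDM, and rose 2.30-fold (log2 1.20 ± 0.28, edgeR adjusted p = 0.00479). Their sum was 450.5 and 432 CPM before and 420.1 and 442 CPM after HDM. Per kilobase of exon, Hk2 made up 23.6% and 26.5% of the pair in naive libraries and 46.9% and 59.5% in F WT HDM.

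Among the rest of this stretch, Aldoa fell by 0.44 ± 0.12 on the log2 scale, while Gpi1 (glucose-6-phosphate isomerase, -0.05 ± 0.12) and Pfkm (muscle-type phosphofructokinase, 0.03 ± 0.08) were not called. The phosphofructokinase genes thus moved unequally. Summed over the 3 genes, phosphofructokinase was 369 and 332 CPM in F WT naive and 199.6 and 178 CPM in F WT HDM, and per kilobase the share of Pfkm went from 22% and 21.9% to 35.6% and 37.8%. Exons of Pfkm overlap those of Senp1, which differed by 0.09 ± 0.11.

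**Figure D2:**
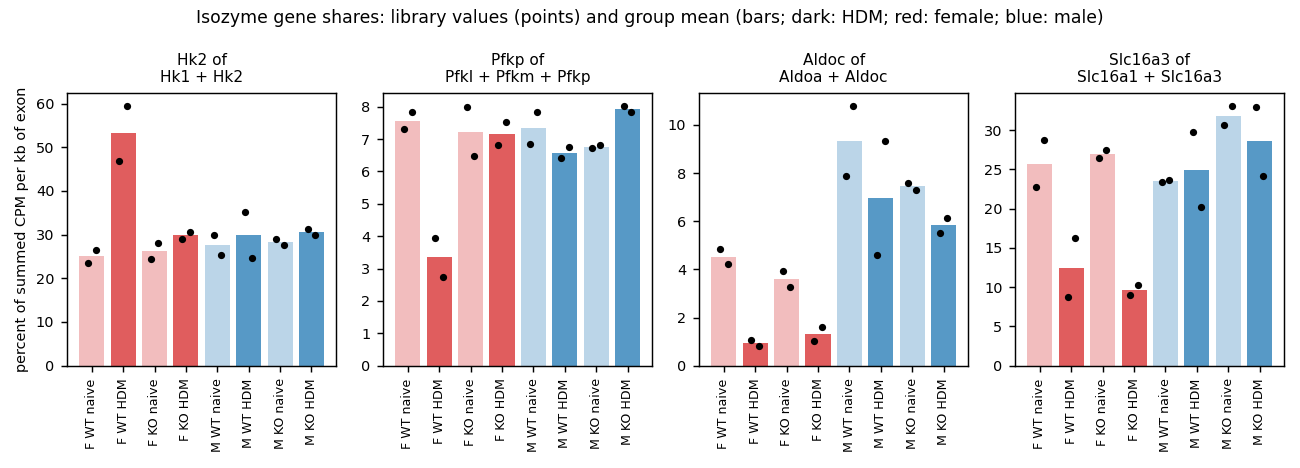
Share of 1 isozyme or transporter gene in its family, as a percent of summed CPM per kb of exon, in each library (points) with the group mean (bars from 0, dark for HDM, red female, blue male). In F WT HDM the Hk2 share was 46.9% and 59.5% and the Pfkp share 3.95% and 2.75%. The Aldoc share was 0.81% to 1.6% in the female HDM libraries, below the 3.27% to 4.85% of the naive female libraries.

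From triose phosphate to pyruvate, 0 of 6 genes were called, with 1 of them, Eno1, at an unadjusted p under 0.05. Eno1 (alpha-enolase) had 926 and 988 CPM in F WT naive and 1244 and 1231 CPM in F WT HDM, a log2 difference of 0.37 ± 0.15 (edgeR adjusted p = 0.0609) that was called with DESeq2. Gapdh had 1147 and 1204 CPM in naive and 1323 and 1439 CPM in HDM libraries (0.23 ± 0.17). Pgk1, phosphoglycerate kinase, had 346 and 365 CPM against 355 and 342 CPM (-0.03 ± 0.15), and Pkm had 2367 and 2472 CPM against 2433 and 2417 CPM (0.00 ± 0.19). Pgam1, phosphoglycerate mutase, differed by -0.08 ± 0.11, and the neuronal enolase Eno2, counted 10 to 56 times in a library, by 0.16 ± 0.59. A missed threshold does not show that these levels were equal, and the standard errors of the 5 genes other than Eno2 were at most 0.191.

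Of the genes for the fate of pyruvate, Ldhb, the lactate dehydrogenase subunit of oxidative tissues, had 103 and 103.5 CPM in F WT naive and 73.1 and 72.5 CPM in F WT HDM (log2 -0.50 ± 0.11, edgeR adjusted p = 0.00393). Pdk1, which switches off pyruvate dehydrogenase, had 41.0 and 39.8 CPM in naive and 27.8 and 25.1 CPM in HDM libraries (log2 -0.61 ± 0.16, edgeR adjusted p = 0.0101). Ldha differed by -0.27 ± 0.17 and was not called. Pfkfb3, a kinase that makes the phosphofructokinase activator fructose 2,6-bisphosphate, rose from 19.1 and 20.8 CPM to 26.2 and 25.6 CPM (log2 0.38 ± 0.12, edgeR adjusted p = 0.0274), and its relative Pfkfb4 differed by 0.00 ± 0.20.

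In the oxygen-sensing group, Egln3 (ENSMUSG00000035105, on build GRCm38 at chr12:54178981-54203860, - strand), a prolyl hydroxylase that is itself induced by HIF, had 39.1 and 36.4 CPM in F WT naive and 5.24 and 5.16 CPM in F WT HDM. The HDM values were at 0.138 of the naive level (log2 -2.86 ± 0.30, edgeR adjusted p = 2.28e-05). Hif1a, the HIF-1 alpha subunit, had 146 and 153 CPM in naive and 108.5 and 112 CPM in HDM libraries and fell by 0.44 ± 0.11 on the log2 scale (edgeR adjusted p = 0.0075). Egln1, the main prolyl hydroxylase, had 69.6 and 68.5 CPM against 67.8 and 70.2 CPM, a log2 difference of 0.00 ± 0.09.

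Of the other hypoxia-response genes, 5 of 9 fell and 1 rose. Adm (ENSMUSG00000030790, on build GRCm38 at chr7:110627661-110629820, + strand), which encodes the vasodilator peptide adrenomedullin, had 15.6 and 16.3 CPM in F WT naive and 1.58 and 1.80 CPM in F WT HDM. It was left at 0.106 of the naive level (log2 -3.24 ± 0.24, edgeR adjusted p = 1.95e-06), the largest fall of the 35 members. P4ha2, a prolyl hydroxylase subunit for collagen, moved the other way, from 110 and 105 CPM to 226 and 251.5 CPM (2.22-fold, log2 1.15 ± 0.11, edgeR adjusted p = 1.09e-05). The related subunit gene P4ha1 differed by 0.28 ± 0.14 and was not called.

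Ankrd37 (ENSMUSG00000050914, on build GRCm38 at chr8:45996902-46005707, - strand), an ankyrin repeat gene known as a HIF target, had 5.59 and 5.89 CPM in F WT naive and 0.915 and 0.853 CPM in F WT HDM (log2 -2.69 ± 0.29, edgeR adjusted p = 3.21e-05). The lowest library held 18 reads on it. Its exons overlap those of Ufsp2, which had 27.9 to 36.4 CPM and fell by 0.33 ± 0.09, and how reads in the overlap were counted is not stated. Bnip3, a receptor for removal of mitochondria, had 30.04 and 26.0 CPM in naive and 13.9 and 19.0 CPM in HDM libraries and fell by 0.77 ± 0.15 on the log2 scale (edgeR adjusted p = 0.0014).

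Car12, a membrane carbonic anhydrase, fell by 2.66 ± 0.58 on the log2 scale (edgeR adjusted p = 0.00334), and Ndrg1, a stress-response gene, by 0.44 ± 0.13 (edgeR adjusted p = 0.016). Car9, the classical hypoxia-induced carbonic anhydrase, was low in all libraries (0.322 to 2.21 CPM) and was not called (-0.48 ± 0.36), and its exons overlap those of Gm12454, whose reads over all libraries came to 95% of its own. Vegfa, the endothelial growth factor gene, had 72.6 and 85.5 CPM in naive and 71.8 and 116 CPM in HDM libraries (0.25 ± 0.32). Without the F WT library with the higher fibroblast sum in each group, 10 of 35 members were called, namely Adm, Egln3, Ankrd37, Aldoc, Pfkp, Pfkl, Tpi1, Bnip3, Ndrg1 and P4ha2. In the other 9 the direction was kept and the fold changes moved little, for example from 1.20 to 1.00 for Hk2, -0.58 to -0.51 for Hk1, -2.66 to -2.75 for Car12 and -0.44 to -0.43 for Hif1a on the log2 scale, with edgeR adjusted p from 0.0563 to 0.134 in this fit of fewer libraries. With 1 F WT library left out, the call of Pfkfb3 was lost in each of the 4 fits (edgeR adjusted p from 0.0584 to 0.16), those of Slc16a3 and Ndrg1 without naive replicate 2 or HDM replicate 1, that of Pdk1 without HDM replicate 2 and that of Aldoa without naive replicate 1. Pfkfb3 also missed the threshold without the low-count filter (edgeR adjusted p = 0.0525).

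**Figure D3:**
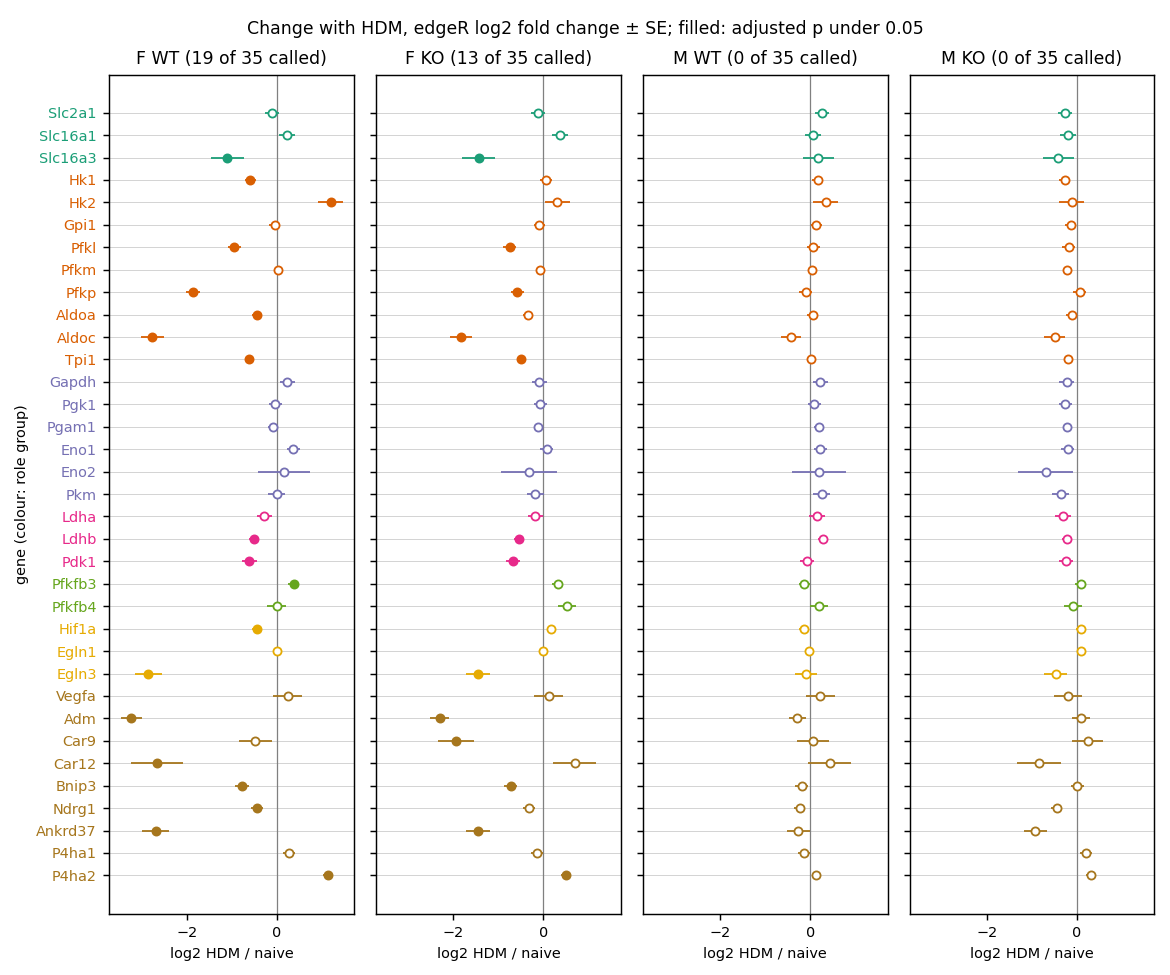
Log2 fold change with HDM for each member (rows) with its standard error, in the 4 groups of sex and genotype label (panels), filled where the edgeR adjusted p was under 0.05. There were 19 filled points in F WT and 13 in F KO, mostly to the left of 0, and 0 in M WT and in M KO.

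In F KO MTECs 13 of 35 members (37.1%) were called with HDM, 12 lower and 1 higher, against 10.4% of all genes tested and 5.77% in the lower direction. The median log2 fold change was -0.15, against -0.005 for all genes tested. Of the 13 members, 12 were also called in the same direction in F WT, which is 92.3% of the F KO list and 63.2% of the F WT list. For all genes these shares were 83.8% and 20.2%. The falls in Adm, Aldoc, Egln3 and Ankrd37 were the largest of those shared by both groups. Lman1 itself was 5.66-fold higher in F KO HDM than in F KO naive (edgeR adjusted p = 0.00744). The part of that difference in the member calls was not tested.

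Adm had 13.7 and 13.6 CPM in F KO naive and 3.07 and 2.43 CPM in F KO HDM (0.201 of the naive level, edgeR adjusted p = 0.000256). Aldoc had 53.7 and 44.6 CPM in naive and 11.7 and 15.8 CPM in HDM libraries (0.280 of the naive level, edgeR adjusted p = 0.00125). Egln3 had 41.6 and 32.5 CPM against 14.8 and 12.2 CPM, and Ankrd37 5.73 and 5.39 CPM against 2.14 and 1.90 CPM. In all of these the naive and HDM libraries did not overlap, and the F KO HDM values of each lay above those of F WT HDM.

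The further falls in F KO were those of Car9 (log2 -1.95 ± 0.40), Slc16a3 (-1.44 ± 0.36), Pfkl (-0.75 ± 0.14), Bnip3 (-0.73 ± 0.15), Pdk1 (-0.68 ± 0.16), Pfkp (-0.58 ± 0.15), Ldhb (-0.54 ± 0.11) and Tpi1 (-0.50 ± 0.09), and P4ha2 rose by 0.50 ± 0.11. Car9, the only one of the 13 not called in F WT, rests on 45 to 55 reads in naive and 9 to 11 reads in HDM libraries. Hk1 (0.06 ± 0.13), Hk2 (0.31 ± 0.28), Hif1a (0.18 ± 0.11) and Car12 (0.69 ± 0.49) were not called. The 6 genes from triose phosphate to pyruvate ranged from -0.33 to 0.07 and 0 were called, also at an unadjusted p under 0.05. With any single F KO library left out, between 2 and 8 of the 13 members were still called: 2 without F KO HDM replicate 2, 3 without F KO naive replicate 1, and 8 without F KO naive replicate 2 or F KO HDM replicate 1. Adm and Aldoc were called in all 4 of these fits, and Slc16a3, Pdk1, Pfkp and P4ha2 in none.

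In male MTECs 0 of 35 members were called with HDM in either genotype, as were 0 of 15993 genes (0%). With edgeR 1 member in M WT and 5 in M KO had an unadjusted p under 0.05, and DESeq2 called 0 members in both. Adm had 16.5 and 12.2 CPM in M WT naive and 11.5 and 12.1 CPM in M WT HDM (log2 -0.28 ± 0.20), and 15.0 and 23.7 CPM in M KO naive and 19.9 and 21.2 CPM in M KO HDM (0.09 ± 0.20). Egln3 had 69.4 and 42.4 CPM in M WT naive and 67.0 and 38.0 CPM in M WT HDM, so that the groups overlapped. In M KO it had 72.4 and 66.3 CPM in naive and 47.1 and 52.9 CPM in HDM libraries (-0.47 ± 0.25).

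Among the 5 members with a low unadjusted p in M KO were Ankrd37 (7.93 and 6.04 CPM in naive, 3.78 and 3.58 CPM in HDM, log2 -0.92 ± 0.25, edgeR adjusted p = 0.781) and Ndrg1 (-0.45 ± 0.13, edgeR adjusted p = 0.781). The others were P4ha2 (0.31 ± 0.11), Pfkm (-0.22 ± 0.08) and Aldoc (-0.50 ± 0.23). In M WT the member was Ldhb (0.29 ± 0.11). The replicates of 3 male groups differed in glycolytic genes. Hk2 had 132 and 83.1 CPM in M WT naive, 178 and 96.4 CPM in M WT HDM and 126 and 97.0 CPM in M KO naive, and Pkm had 2513 and 1984, 3201 and 2167, and 2682 and 2017 CPM. In these 3 groups 23, 23 and 25 of 35 members were higher in replicate 1, and the summed multiciliated markers were 152, 144 and 164 CPM in replicate 1 against 64.8, 78.9 and 69.4 CPM in replicate 2. The summed fibroblast markers were 4.01, 2.46 and 4.72 CPM in replicate 1 against 156, 39.4 and 96.4 CPM in replicate 2. The part of these differences in the member levels was not tested, and the fit without pairing counts them as spread between replicates.

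**Figure D4:**
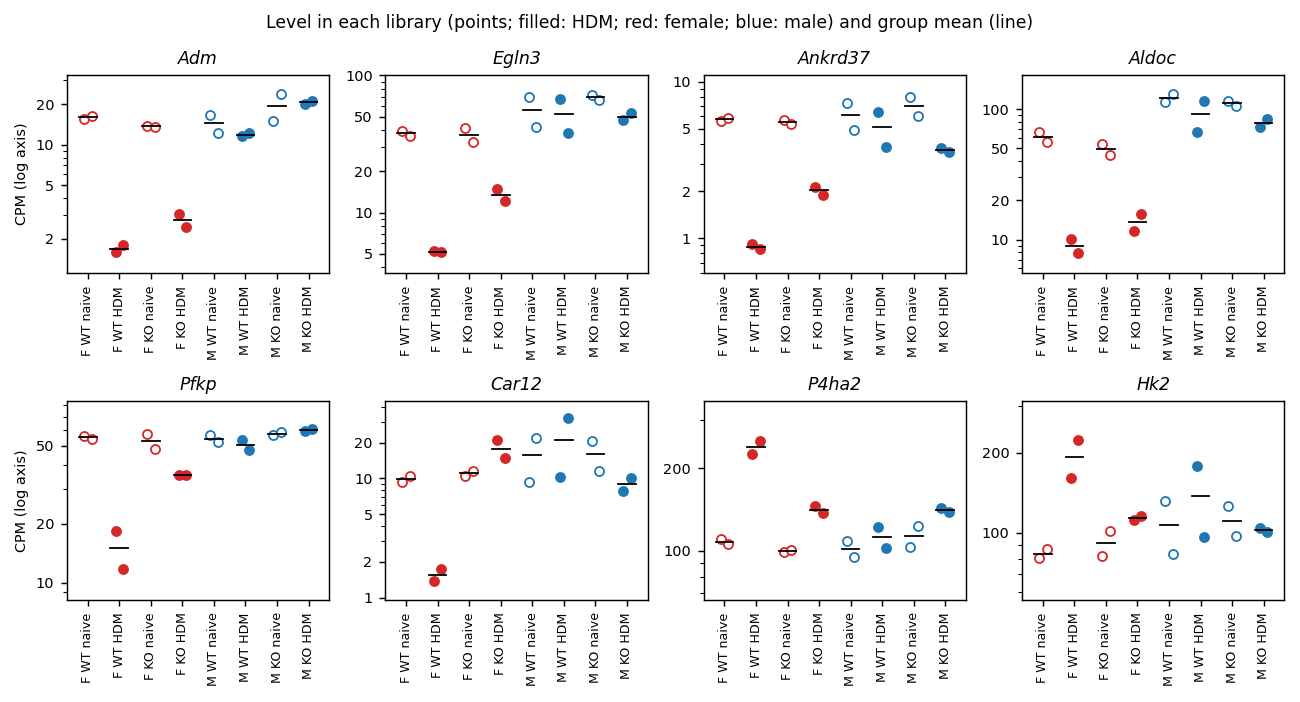
CPM on a log axis of 8 members in each library (points, filled for HDM, red female, blue male) with the group mean (line). Adm, Egln3, Ankrd37 and Aldoc were lower in both female HDM groups than in any other group, Car12 in F WT HDM alone, while P4ha2 and Hk2 were highest on average in F WT HDM.

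Whether the HDM response differed between the sexes was tested as an interaction. In WT, 12 of 35 members (34.3%) differed, against 24.2% of all genes. The log2 change was higher in males in 11 members and lower in 1, against 12.8% and 11.3% of all genes. The male minus female difference of responses was 2.95 ± 0.31 for Adm, 2.77 ± 0.39 for Egln3, 2.43 ± 0.38 for Ankrd37 and 1.76 ± 0.22 for Pfkp on the log2 scale, and -1.01 ± 0.15 for P4ha2 (edgeR adjusted p = 0.000795). In KO, 3 of 35 members (8.57%) differed, against 3.56% of all genes (1.77% higher and 1.79% lower in males): Adm by 2.40 ± 0.29, Car9 by 2.19 ± 0.53 and Aldoc by 1.34 ± 0.33. The KO count was 1 in 7 of the 8 fits with a library left out (2 without M KO naive replicate 2), 5 with DESeq2, 6 with only the compared libraries and 9 without the low-count filter. For Egln3, Pfkp and the others the KO difference was not called, and whether the sex difference itself depended on genotype was not tested.

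Male and female levels were also compared directly. In naive MTECs 0 of 35 members were called in WT, where 0.1% of all genes were (0.075% higher and 0.025% lower in males), and 0 in KO, where 0.188% were (0.119% higher and 0.0688% lower), although 5 and 10 members had an unadjusted p under 0.05 with edgeR and DESeq2 called 2 (Aldoc, Ndrg1) and 3 (Aldoc, Ndrg1, Egln3). The members with the lowest p in both were Ndrg1 and Aldoc. Aldoc had 113 and 132 CPM in M WT naive against 67.0 and 55.8 CPM in F WT naive, and 116 and 106 CPM in M KO naive against 53.7 and 44.6 CPM in F KO naive (log2 1.00 ± 0.23 and 1.17 ± 0.23, edgeR adjusted p = 0.164 and 0.077). Ndrg1 had 68.3 and 64.6 CPM against 41.0 and 48.6 CPM in WT, and 70.5 and 62.8 CPM against 42.6 and 41.7 CPM in KO (0.57 ± 0.13 and 0.66 ± 0.13). For both genes the male libraries lay above the female ones, a difference that did not pass the adjusted threshold with edgeR and did with DESeq2.

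Under HDM 18 of 35 members (51.4%) differed between M WT and F WT, against 41.6% of all genes. Of these members 17 were higher and 1 lower in males, against 21.3% and 20.3% of all genes. This comparison uses the same F WT HDM libraries as the female response and is not a second source of evidence. Car12 (13.5-fold), Aldoc (10.2-fold), Egln3 (10.1-fold), Adm (6.99-fold) and Ankrd37 (5.75-fold) were the most different, with edgeR adjusted p from 3.08e-06 to 0.000409. Car12 rested on spread-out male values, 10.2 and 32.0 CPM in M WT HDM, against 1.37 and 1.75 CPM in F WT HDM. Ldha (1.5-fold) and Slc2a1 (1.4-fold), which were not called in the female response, were higher in M WT HDM, where replicate 1 had 1790 and 169 CPM and replicate 2 had 1285 and 122 CPM.

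Between M KO HDM and F KO HDM 14 of 35 members (40.0%) differed, against 25.3% of all genes. Of these members 13 were higher and 1 lower in males, against 12.9% and 12.4% of all genes. Adm was 7.48-fold, Aldoc 5.71-fold, Car9 4.98-fold and Egln3 3.70-fold higher in males. The transporter Slc16a1 was lower in males, with 8.70 and 9.22 CPM in M KO HDM against 20.2 and 18.2 CPM in F KO HDM (0.468 of the female level, edgeR adjusted p = 0.00133). P4ha1 (1.65-fold) and Egln1 (1.22-fold) were higher in males in this pair of groups and were not called between M WT HDM and F WT HDM. Between 9 and 12 members were called with any 1 of these libraries left out, with 9 without M KO HDM replicate 2 or F KO HDM replicate 2.

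The genotype label was compared last. In naive MTECs 0 of 35 members were called between KO and WT in females and 0 in males, as were 0% of all genes. In either sex 0 members had an unadjusted p under 0.05, and DESeq2 called 0. Lman1 itself was not called there, at log2 -3.26 ± 0.48 in females and -1.65 ± 0.45 in males (edgeR adjusted p = 0.403 and 0.879). These counts of 0 therefore do not show that member levels were equal. Under HDM 0 members were called in males (0% of all genes), although 12 had an unadjusted p under 0.05 and DESeq2 called 2 (Adm, Hk1). Adm, with 19.9 and 21.2 CPM in M KO HDM against 11.5 and 12.1 CPM in M WT HDM, had the lowest p there (log2 0.80 ± 0.20, edgeR adjusted p = 0.160).

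In females under HDM 9 of 35 members (25.7%) differed between KO and WT, against 29.2% of all genes, 6 higher and 3 lower in KO. This share was not above that of all genes, of which 14.9% were higher and 14.3% lower in KO. Car12 had 20.8 and 14.8 CPM in F KO HDM against 1.37 and 1.75 CPM in F WT HDM (11.4-fold, edgeR adjusted p = 0.00146), whereas the naive groups lay close together at 10.5 and 11.5 CPM in F KO and 9.26 and 10.5 CPM in F WT. Pfkp (2.34-fold), Egln3 (2.60-fold), Ankrd37 (2.27-fold), Hk1 (1.60-fold) and Hif1a (1.54-fold) were also higher in F KO HDM, and P4ha2 (0.592), P4ha1 (0.734) and Car9 (0.374 of the WT level) were lower. Without F WT HDM replicate 2, 5 members were called, and without the F WT library with the higher fibroblast sum in each group, 4.

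The HDM response itself differed between F KO and F WT for 6 of 35 members (17.1%), against 11.2% of all genes. In 5 members the log2 change was higher in KO and in 1 lower, against 6.16% and 5.08% of all genes. The KO minus WT difference of responses was 3.35 ± 0.76 for Car12, 1.4 ± 0.39 for Egln3, 1.29 ± 0.22 for Pfkp, 0.64 ± 0.18 for Hk1, 0.62 ± 0.16 for Hif1a and -0.65 ± 0.15 for P4ha2 on the log2 scale. For Adm, Ankrd37 and Aldoc the difference was not called. This count fell to between 1 and 4 with 1 library left out, with the value 1 without F WT naive replicate 1, F WT HDM replicate 2, F KO naive replicate 1 or F KO naive replicate 2, 2 without F WT naive replicate 2 or either F KO HDM replicate, and 4 without F WT HDM replicate 1. In males 0 of 35 members differed (0% of all genes), with 6 at an unadjusted p under 0.05 and 0 by DESeq2. The HDM response of Lman1 itself differed between F KO and F WT by 2.67 ± 0.64 on the log2 scale (edgeR adjusted p = 0.0238).

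Genes around these pathways were followed in lists that did not overlap the members. Of 9 tested HIF regulators, 5 fell and 0 rose with HDM in F WT (55.6% called, against 43.1% of all genes, of which 22.4% were lower and 20.6% higher). Epas1, the HIF-2 alpha subunit, was the most abundant of all HIF genes listed, except in F WT HDM replicate 2, where Hif1a had 112 CPM. It had 2400 and 1822 CPM in F WT naive and 131 and 86.6 CPM in F WT HDM (0.0514 of the naive level, edgeR adjusted p = 1.38e-06). In F KO it had 2039 and 1624 CPM in naive and 720 and 658.5 CPM in HDM libraries (0.376 of the naive level, edgeR adjusted p = 0.00698). Male libraries held 1994 to 3915 CPM, above every female HDM library. Ep300, a histone acetyltransferase that HIF recruits, fell by 0.63 ± 0.15 and Arnt, the stable HIF partner, by 0.59 ± 0.10 on the log2 scale in F WT, and neither was called in F KO.

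Of 22 further hypoxia-response genes, 4 fell and 4 rose in F WT (36.4% called, against 43.1% of all genes) and 1 fell in F KO (4.55% against 10.4%), so neither share was above that of all genes. Ppp1r3c, a glycogen-targeting phosphatase subunit, was left at 0.107 of the naive level and Stc2, the glycoprotein stanniocalcin 2, at 0.191, while Angptl4, an inhibitor of lipoprotein lipase, rose from 0.727 and 2.56 CPM to 11.1 and 20.4 CPM (edgeR adjusted p = 0.00363). In F KO Stc2 was left at 0.399 of the naive level.

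Of 15 tested further enzymes of glycolysis and gluconeogenesis, 4 fell and 1 rose in F WT (33.3% called, against 43.1% of all genes). In F KO 1 fell (6.67%, against 10.4% of all genes), so neither share was above that of all genes. Pfkfb2 fell by 0.94 ± 0.15 and Ldhd by 0.43 ± 0.12 on the log2 scale in F WT. Of 13 genes for pyruvate dehydrogenase and pyruvate import, 5 fell and 1 rose in F WT (46.2% called, against 43.1% of all genes), and 2 fell and 1 rose in F KO (23.1%, against 10.4%).

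The gene that rose was Pdk4, a kinase that switches off pyruvate dehydrogenase. It had 2.03 and 5.08 CPM in F WT naive and 45.9 and 30.03 CPM in F WT HDM (10.4-fold, edgeR adjusted p = 0.000759), and 3.22 and 5.45 CPM in F KO naive and 21.1 and 19.1 CPM in F KO HDM (4.63-fold, edgeR adjusted p = 0.0291). Its relatives Pdk1 and Pdk2 (-0.68 ± 0.14) fell in F WT, as did the pyruvate carboxylase gene Pcx (-1.07 ± 0.22). The pyruvate dehydrogenase kinase genes therefore moved in opposite directions in the same libraries.

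Of 7 genes of the pentose phosphate pathway 1 fell in F WT (Pgd, -0.61 ± 0.18, 14.3% called, against 43.1% of all genes). In F KO 0 were called with edgeR, against 10.4% of all genes, with 0 at an unadjusted p under 0.05. Of 7 glycogen enzymes, Pygb (-0.68 ± 0.15) and Gys1 (-0.63 ± 0.08) fell and Gbe1 (0.75 ± 0.13) rose in F WT, and Gys1 fell in F KO. These were 42.9% of the list in F WT, against 43.1% of all genes, and 14.3% in F KO, against 10.4%. Of 7 glucose-sensing and MYC regulators, Txnip, which restrains glucose uptake, fell from 234 and 203 CPM to 42.99 and 23.4 CPM in F WT (0.152 of the naive level, edgeR adjusted p = 7.5e-06), and its relative Arrdc4 rose by 0.69 ± 0.18, which made 28.6% of the list called against 43.1% of all genes. In F KO Txnip had 223 and 188 CPM in naive and 140.5 and 133 CPM in HDM libraries and was not called (-0.59 ± 0.22). In both male responses 0 of the 80 genes tested in these 7 lists were called with edgeR, with 3 in M WT and 2 in M KO at an unadjusted p under 0.05.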

How the data were processed

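RNA was sequenced from MTECs of 16 cultures, 2 in each of 8 groups. The deposited table holds whole-number counts that the authors left unnormalized, 1 row for each Ensembl identifier. Per the labels, the submitters' processing notes name Trimmomatic 0.36, STAR 2.5.2b, featureCounts from Subread 1.5.2 and build GRCm38; the annotation release, strandedness and handling of shared reads are not given in the sources used here. Columns were matched to samples by name, and 0 columns of samples were left unused.

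Of 49315 identifiers, 49056 matched GENCODE M21. Differential expression was tested with edgeR 4.0.16 in R 4.3.3 (filterByExpr, TMM, quasi-likelihood fit of 8 group means over 15993 genes, two-sided, Benjamini-Hochberg adjustment for each of 16 comparisons). Calls required an adjusted p under 0.05. Steps were tested on simulated data. Pooled tracheas and 2 libraries per group limit precision, with a common biological coefficient of variation of 0.142. P-values measure the spread between libraries labelled as biological replicates. The first column of each group had no number and was taken as replicate 1.

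Near-identical copies of members were sought with blastn 2.17.0 (at least 95% identity over 200 bases). Reads on copies came to at most 1.06% of a member's reads, for Gapdh. Other steps used Python 3.11.15 with pandas 2.3.3, numpy 2.4.6 and matplotlib 3.10.9. Promoter windows came from RefSeq.

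The members and gene lists were chosen with earlier results of these data known. All 35 members are named. In each role group, up to 4 members called in the F WT HDM response, ordered by p, were to have the value of every library, and the rest a fold change, range or count. From each pathway list, up to 3 called genes with the largest change in F WT were to be named, with Lman1, Xist and Ddx3y as checks of the labels. A pathway gene and a marker gene are not reported here. Values of further members and comparisons, and of marker and overlapping genes, were chosen after the data were seen. Alternatives were DESeq2 1.42.0, upper-quartile and RLE scaling, no low-count filter, only the compared libraries, a replicate block, and leaving out each library. Leaving out the F WT libraries with most fibroblast markers was added after the data were seen.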

Additional observations from a re-analysis of the deposited data

Results flagged for a closer look

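The results below were singled out because the HDM response differed between groups by a test of the difference itself, with edgeR's adjusted p under 0.05. In WT the male response minus the female response was 0.64 for Tpi1, 0.8 for Ldhb, 2.95 for Adm, 0.49 for Aldoa, 0.75 for Hk1, 1.01 for Pfkl, 2.43 for Ankrd37, 3.1 for Car12, -1.01 for P4ha2, 2.35 for Aldoc, 1.76 for Pfkp and 2.77 for Egln3 on the log2 scale. In 11 of these 12 genes the females fell and the males did not pass the test, and P4ha2 rose in females.

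In KO the male minus female difference was 2.19 for Car9, 2.4 for Adm and 1.34 for Aldoc, and only 1 member was called in 7 of the 8 fits that left out a library. Between the female genotype labels, the KO response minus the WT response was 0.64 for Hk1, 3.35 for Car12, -0.65 for P4ha2, 1.29 for Pfkp, 1.4 for Egln3 and 0.62 for Hif1a. The F WT HDM libraries enter both sets of WT differences, and the club and secretory, goblet and basal markers were lower there as well. Their part in these differences was not tested.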

How the results depend on the processing

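With 2 libraries per group, small differences could not be detected. Upper-quartile and RLE scaling kept all 19 member calls in F WT and all 13 in F KO, and DESeq2 called 20 and 14. Without the low-count filter members called rose to 1 in M WT, 5 in M KO, 6 between the sexes in naive WT and 6 in naive KO, 14 for KO minus WT in M HDM, 9 for the sex difference of responses in KO, and 10 and 5 for the genotype difference of responses in F and M. DESeq2 gave 2 and 3 for the naive sex differences in WT and KO, 2 for KO minus WT in M HDM, and 5 for the sex difference of responses in KO, which was 6 with only the compared libraries. Without the F WT libraries richest in fibroblast markers, counts were 10 for the F WT response, 4 for KO minus WT in F HDM and 1 for the genotype difference of responses in F, although the 9 members that lost their call in F WT kept their direction and moved by at most the change of Hk2 from 1.20 to 1.00 on the log2 scale. The cause of these changes was not tested.

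With 1 library left out, which leaves a lone sample assumed to vary like the other groups, counts ranged from 16 to 17 for the F WT response, 2 to 8 for F KO, 15 to 20 and 9 to 12 for the sex difference in WT HDM and KO HDM, 5 to 10 for KO minus WT in F HDM, 11 to 14 and 1 to 2 for the sex difference of responses in WT and KO, and 1 to 4 for the genotype difference of responses in F. The sex difference of responses in KO fell to 1 without either M KO HDM library, M KO naive replicate 1 or any single F KO library.

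Replicate numbers were not taken to pair the samples, since of 28 group pairs only 9 correlations of replicate deviations were above 0.1 and 7 were below -0.1 (-0.305 to 0.496). Between M WT naive, M WT HDM and M KO naive same-numbered libraries did deviate together (0.459 to 0.496), and F WT naive and F WT HDM correlated at 0.307. With the replicate block, members called were 19 in F WT, 13 in F KO, and 0 in M WT and in M KO. There were 18 and 15 for the sex differences in WT HDM and KO HDM, and 9 for KO minus WT in F HDM. The sex differences of responses gave 13 and 2, and the genotype difference of responses in F gave 7. The block was a single term shared by all 8 groups, so it could not remove a replicate difference confined to some groups. Pairing within the male groups alone was not tested. None of the settings reversed the direction of a called member in the 2 female responses.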
